A study of Bos taurus with 10 samples.

Results

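DNAJC12 and RETREG1 were followed across 5 bovine tissues taken at peak lactation. They are 2 of the 4366 genes that could be named on the array, and both were chosen by their measured excess in mammary gland over liver and over adipose tissue. That excess is therefore described and not tested. Each gene was found by its current symbol and rests on a single cDNA clone printed as a pair of spots.

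DNAJC12 encodes a cytosolic J-domain protein, a partner that hands client proteins to the HSP70 chaperone HSPA8, and it is known as the co-chaperone of aromatic amino acid hydroxylases. RETREG1, earlier called FAM134B, encodes a protein of the endoplasmic reticulum membrane whose reticulon domain curves the membrane and which binds LC3 and GABARAP proteins, so that pieces of the reticulum are taken up by autophagosomes. The secretory epithelium of the lactating gland folds and exports large amounts of milk protein through that compartment.

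Total RNA of mammary gland, liver and 3 adipose depots (subcutaneous, mesenteric and omental) of a lactating cow was labelled by the aminoallyl method. Each tissue was hybridised on 2 arrays against a common standard made by mixing tissues. One array had the tissue in Cy3 and the other had it in Cy5. The sources used here do not give the number of animals, pooling, age or breed. All samples came from peak lactation, so no dry or early stage enters any comparison. The 2 arrays of a tissue were treated as a technical dye swap of 1 RNA sample, and for this reason no p-value is given anywhere.

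A level below is the log2 ratio of tissue over standard, centred on the median of its array, with 4 spots a tissue. The ± sign gives the distance of each dye orientation from the mean of both, which covers dye and array error only and not the spread between cows. A difference is called higher or lower when it is at least 1 log2 unit, or 2-fold, and of the same sign in each dye orientation. The direction of the ratio is likely and not stated: it was taken as Cy5 over Cy3, under which hepatocyte genes stand high in liver and epithelial genes in mammary gland, so the place of those genes is no independent check. With the opposite direction every difference would change its sign. The names of genes depend on a rebuilt print layout, described with the processing. Between 15970 and 16245 of 16416 spots an array had a value. Precision is limited by the number of arrays.

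One omental array, the Cy5 one by title, carries labels that name different dyes for its standard, and the dye label was used. Milk-secreting epithelium markers stood at a mean level of 2.72 in mammary gland, 0.33 in liver, 0.03 in mesenteric, -0.33 in omental and -0.21 in subcutaneous adipose tissue, over 10 of 18 listed genes. In mammary gland these genes ran from -2.16 to 5.07. The caseins, LALBA and PAEP were not among the named elements used here. Hepatocyte markers, 7 of 12 measured, stood at -1.26 in mammary gland and 2.94 in liver. Among them APOA1 stood at 0.85 in liver, below its 1.86 in subcutaneous tissue. The 4 adipocyte markers measured of 12 averaged -0.08 in subcutaneous tissue, 1.88 in mesenteric and 1.86 in omental tissue. The 10 macrophage markers averaged 3.10 in subcutaneous tissue and ran there from 0.79 to 5.84. Of the adipocyte markers in subcutaneous tissue, CEBPA stood at 1.12, against 1.13 in mesenteric tissue, while LIPE, GPAT3 and CAV1 stood at -0.34, -0.52 and -0.55, below their levels in both visceral depots.

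After centring, DNAJC12 stood far above the array median in mammary gland, moderately above it in liver, and below it in all adipose depots. Its mammary spots read 4.44 and 3.84 with the tissue in Cy3 and 4.35 and 4.35 with it in Cy5. Its liver spots read 1.13 and 1.15 in Cy3 and 0.97 and 1.02 in Cy5. The lowest mammary spot lay well above the highest liver spot, and all spots of both tissues lay above those of fat.

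In mesenteric fat the DNAJC12 spots read -1.11 and -0.97 in Cy3 and -1.18 and -1.10 in Cy5. In omental fat they read -0.68 and -0.72 in Cy3 and -0.86 and -0.89 in Cy5. In subcutaneous fat they read -1.35 and -1.29 in Cy3 and -1.53 and -1.04 in Cy5. All 12 adipose spots were below the array median, and the omental spots were the least low.

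As tissue means, DNAJC12 stood at 4.25 ± 0.11 in mammary gland, 19.0-fold over the standard after centring, and at 1.07 ± 0.07 in liver. It stood at -0.79 ± 0.09 in omental, -1.09 ± 0.05 in mesenteric and -1.31 ± 0.02 in subcutaneous adipose tissue. In this order mammary gland and liver lay 3.18 ± 0.18 apart and liver and omental fat 1.86 ± 0.02 apart. Omental and mesenteric fat differed by 0.30 ± 0.04 with no overlap of spots. Mesenteric and subcutaneous fat differed by 0.21 ± 0.07 with overlapping spots, so the last pair cannot be ordered beyond its spot spread.

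RETREG1 had another profile: high in mammary gland and low in the other 4 tissues, liver included. Its mammary spots read 2.77 and 2.66 with the tissue in Cy3 and 2.87 and 2.92 with it in Cy5. Its liver spots read -1.90 and -2.02 in Cy3 and -1.38 and -1.64 in Cy5. The mammary spots were tight, whereas the liver arrays stood apart by dye.

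In mesenteric fat the RETREG1 spots read -0.85 and -0.98 in Cy3 and -1.02 and -1.30 in Cy5. In omental fat they read -0.89 and -0.92 in Cy3 and -1.17 and -1.22 in Cy5. In subcutaneous fat they read -1.72 and -1.80 in Cy3 and -2.34 and -2.13 in Cy5. No spot outside mammary gland reached the array median, and the subcutaneous spots lay below all visceral ones.

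The tissue means of RETREG1 were 2.81 ± 0.09 in mammary gland, 6.99-fold over the standard after centring, and -1.04 ± 0.12 in mesenteric adipose tissue. They were -1.05 ± 0.14 in omental adipose tissue, -1.74 ± 0.22 in liver and -2.00 ± 0.24 in subcutaneous adipose tissue. Mammary gland lay 3.84 ± 0.21 above mesenteric fat, the next tissue. Mesenteric and omental fat differed by 0.01 ± 0.02 with opposite signs in the dye orientations. Omental fat stood 0.68 ± 0.37 above liver with spots apart. Liver and subcutaneous fat differed by 0.26 ± 0.46, with overlapping spots and opposite signs, and have no order here.

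**Figure D1:**
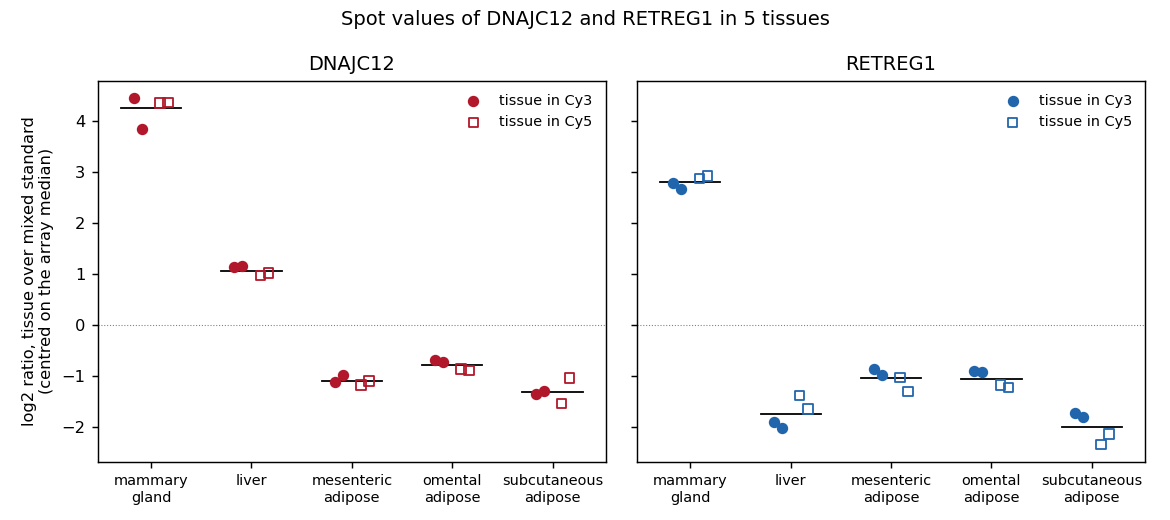
Each point is 1 spot of DNAJC12 or RETREG1, as the centred log2 ratio of tissue over standard, by tissue and dye orientation, with tissue means marked. DNAJC12 steps down from mammary gland through liver to fat, whereas the liver spots of RETREG1 lie with those of fat.

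All 20 spots of each gene had a value and none sat at the ceiling of the deposited table. Duplicate spots differed by a median of 0.055 for DNAJC12 and 0.115 for RETREG1, against 0.109 over all elements. The widest gap of DNAJC12 was 0.598, on the mammary array with the tissue in Cy3, and the widest of RETREG1 was 0.274, on the mesenteric array with the tissue in Cy5. The excess was present in both raw orientations. As deposited, before any turning of signs, the mammary spots of DNAJC12 read -5.58 and -4.99 with the tissue in Cy3 and 4.32 and 4.32 with it in Cy5. Those of RETREG1 read -3.92 and -3.81 in Cy3 and 2.83 and 2.88 in Cy5. The sign of the mammary spots followed the dye in both genes. That was not so in omental fat, where DNAJC12 read -0.415 and -0.378 in Cy3 and -0.87 and -0.90 in Cy5. RETREG1 read -0.21 and -0.17 there in Cy3 and -1.18 and -1.23 in Cy5. In subcutaneous fat DNAJC12 read 0.033 and -0.027 in Cy3. The low omental levels of both genes with the tissue in Cy3 thus rest on the centring.

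The first comparison set mammary gland against liver, an organ that makes plasma proteins at a high rate. Both genes were called higher in mammary gland, which held for 2.75 percent of the 4325 genes compared, while 7.51 percent were called lower and 0.324 percent passed the same size rule in the dye contrast, in which 1 orientation has its sign turned. Since the genes were chosen on this contrast, nothing is read from that share. DNAJC12 was 3.18 ± 0.18 log2 units or 9.06-fold higher, place 7 from the top. RETREG1 was 4.54 ± 0.14 or 23.3-fold higher, place 3. The larger difference of RETREG1 goes with its low level in liver, where DNAJC12 stood above the median.

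Against the mean of the 3 adipose depots both genes were again called higher, as were 2.04 percent of 4313 genes, with 4.71 percent called lower and 0.0696 percent in the dye contrast. DNAJC12 was 5.31 ± 0.15 or 39.6-fold higher, the largest difference of any named gene compared. RETREG1 was 4.17 ± 0.26 or 18.0-fold higher, in place 4. Here the order of the genes was the reverse of that against liver.

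By depot, both genes were called higher in mammary gland than in each one. Over all genes, 2.26 percent were higher and 4.74 percent lower than in mesenteric fat, 2.13 and 4.67 percent against omental fat, and 2.36 and 8.08 percent against subcutaneous fat; in the dye contrasts these shares were 0.37, 0.116 and 0.162 percent. DNAJC12 was 5.34 ± 0.16 higher than in mesenteric, 5.04 ± 0.19 higher than in omental and 5.55 ± 0.09 higher than in subcutaneous fat, first of all named genes each time. RETREG1 was 3.84 ± 0.21 higher than in mesenteric, 3.86 ± 0.23 higher than in omental and 4.80 ± 0.32 higher than in subcutaneous fat, in places 6, 5 and 2.

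Most epithelial markers, a set chosen with earlier results of these data known, were also higher in mammary gland. Of the 10 milk-secreting epithelium markers measured, 9 were called higher than in adipose tissue and 0 lower, beside 2.04 and 4.71 percent of all genes. Their median difference was 3.10, against -0.05 over all genes. Against liver 7 were called higher and 1 lower, KRT18 at -1.09, beside 2.75 and 7.51 percent of all genes. The median there was 2.39, against 0.01 over all genes. The part of epithelial cell share in the levels of DNAJC12 and RETREG1 was not tested, and in bulk tissue fewer cells of a type and less RNA per cell cannot be told apart.

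**Figure D2:**
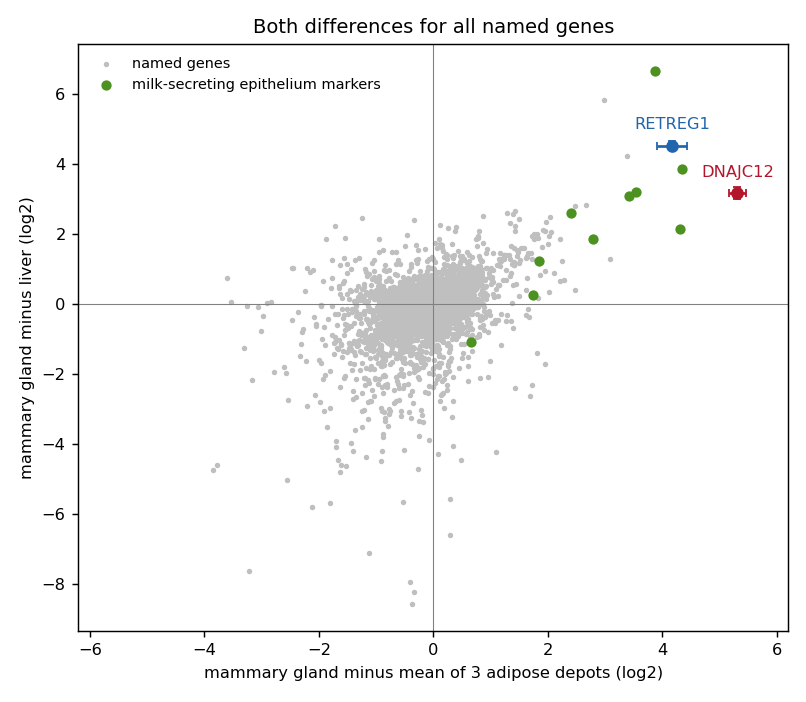
Each grey point is a named gene, placed by its log2 difference of mammary gland minus mean adipose tissue and of mammary gland minus liver. Milk-secreting epithelium markers are green. DNAJC12 and RETREG1 are labelled, with the distance of each dye orientation from the mean as error. DNAJC12 lies at 5.31 against adipose tissue and 3.18 against liver, and RETREG1 at 4.17 and 4.54.

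Outside mammary gland the genes parted. DNAJC12 was called higher in liver than in the mean of the depots, by 2.13 ± 0.03 log2 units or 4.37-fold, with 2.16 in Cy3 and 2.10 in Cy5. Of 4326 genes, 6.2 percent were called higher in liver, 4.72 percent lower and 0.139 percent in the dye contrast, and DNAJC12 was in place 89 from the top. RETREG1 was not called in this comparison: its difference was -0.37 ± 0.39, made of -0.77 in Cy3 and 0.019 in Cy5. The dye orientations of RETREG1 thus did not share a sign between liver and fat.

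Among depots neither gene was called between subcutaneous and visceral fat, the mean of mesenteric and omental tissue. Of 4332 genes, 5.19 percent were called higher in subcutaneous fat, 2.79 percent lower and 0.0923 percent in the dye contrast. RETREG1 differed by -0.95 ± 0.10, with -0.85 in Cy3 and -1.06 in Cy5, so 1 orientation fell short of the 2-fold rule. Without centring of the arrays it differed by -0.33, and relative to the median of all genes by -0.96 under both settings. DNAJC12 differed by -0.37 ± 0.09. The sign of DNAJC12 turned without centring, to 0.26, where the median of all genes moved to 0.64. Relative to the median of all genes the difference was -0.38 under both settings. For both genes such equality is fixed by arithmetic, since centring subtracts a constant from each array. Macrophage markers averaged 3.10 in subcutaneous, 1.09 in mesenteric and 1.21 in omental fat, and adipocyte markers -0.08, 1.88 and 1.86. The macrophage genes C1QA, C1QB and C1QC went the other way. They stood at 1.97, 1.45 and 0.79 in subcutaneous fat, below their levels in both visceral depots. The part of these marker sets in the RETREG1 difference was not tested.

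Centring also moved the split of calls over all genes. Without it, 174 genes were higher and 222 lower in mammary gland than in liver, against 119 and 325 with it. Against mesenteric fat the split was 188 to 77 without centring and 133 to 181 after quantile normalisation, against 98 to 205; against subcutaneous fat it was 59 to 534, against 102 to 350. For liver over fat it was 186 to 322, against 268 to 204, and for subcutaneous over visceral fat 621 to 30, against 225 to 121. Without centring the median of all genes lay at 0.22 for mammary gland minus liver, 0.30 minus mesenteric fat, -0.50 minus subcutaneous fat, and -0.32 for liver minus fat. Relative to that median, DNAJC12 was 3.17 and RETREG1 4.53 higher in mammary gland than in liver, under both settings. This equality is arithmetic, since centring subtracts a constant from each array, and it is no check on the values.

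Among J-domain proteins, the chaperone partners that stimulate HSP70, 20 of 42 listed were measured. DNAJC12, which was chosen on these 2 contrasts, was the 1 called against either liver or adipose tissue. Of all genes, 2.04 percent were called higher and 4.71 percent lower against adipose tissue, and 2.75 and 7.51 percent against liver. The other 19 differed between mammary gland and adipose tissue by -0.54 (DNAJC8) to 0.71 (DNAJC1), and between mammary gland and liver by -0.95 (DNAJA3) to 0.44 (DNAJA4). The median of the 20 was 0.21 against adipose tissue and -0.02 against liver, close to the -0.05 and 0.01 of all genes.

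Chaperones of the HSP70 class are the partners of J-domain proteins. Of 29 listed HSP70 and HSP110 chaperones and exchange factors 12 were measured and 0 called in either comparison. Their medians were -0.16 against fat and 0.08 against liver. Of all genes, 2.04 percent were called higher and 4.71 percent lower than in fat, and 2.75 and 7.51 percent than in liver. With 12 genes, 0 calls lies near these shares. HSPA8, the HSP70 protein that DNAJC12 is known to bind, differed by -0.14 ± 0.26 from fat and -0.06 ± 0.29 from liver. The mitochondrial HSP70 gene HSPA9 was the lowest of the list against fat, at -0.96 ± 0.15, and BAG6 the highest at 0.75. Of the HSP90 proteins, chaperonins and small heat shock proteins 16 of 28 were measured, with none called against fat. The mitochondrial chaperonin genes HSPE1 and HSPD1 were called lower than in liver, at -2.45 ± 0.29 and -1.76 ± 0.08, beside 7.51 percent of all genes. The median of this list was -0.41 against fat and -0.49 against liver.

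The tetrahydrobiopterin genes supply the cofactor of the hydroxylases that DNAJC12 serves. Of 11 genes on the list 3 were measured. QDPR, which recycles the cofactor, was called lower in mammary gland than in fat, at -1.28 ± 0.06, and differed by -0.28 ± 0.49 from liver. GCH1, the first enzyme of its synthesis, was called lower than in liver at -1.03 ± 0.00 and differed by -0.36 ± 0.20 from fat. GCHFR, the feedback regulator of GCH1, differed by 0.68 ± 0.28 from fat and -0.87 ± 0.07 from liver. None of the 3 was called higher in mammary gland. With 3 genes that lies near the share of all genes called higher, 2.04 percent against fat and 2.75 percent against liver. Called lower were 1 of the 3 against fat and 1 against liver, beside 4.71 and 7.51 percent of all genes.

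Of 28 listed RETREG family, ER-phagy receptor and ER-shaping genes 12 were measured. RETREG1, also chosen on these contrasts, was the 1 called higher against fat, beside 2.04 percent of all genes. Neither of its paralogues was called: RETREG2 differed by -0.22 ± 0.19 from fat and -0.25 ± 0.13 from liver, and RETREG3 by 0.24 ± 0.04 and 0.17 ± 0.02. SEC62, an ER-phagy receptor that is also part of the translocon, differed by 0.48 ± 0.12 from fat and -0.58 ± 0.06 from liver. RTN3, a tubule-shaping reticulon and ER-phagy receptor, differed by -0.28 ± 0.10 from fat and was called higher than in liver, by 1.17 ± 0.01.

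REEP5, which curves ER tubules, was called higher than in liver by 1.61 ± 0.17 and differed by 0.14 ± 0.14 from fat. Against liver 3 of the 12 were called higher, 1 of them RETREG1, which was chosen on this contrast, and 0 lower, beside 2.75 and 7.51 percent of all genes compared. The list's median was 0.05 against fat and 0.04 against liver. CCPG1, TEX264, CALCOCO1 and ATL3, further receptors, were not among the named elements used here.

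Of the autophagy machinery, which takes up the membrane that RETREG1 marks, no measured gene was called higher in mammary gland. Of 45 listed genes 17 were measured, and 0 were called against fat in either direction, with a median of 0.01. Of all genes, 2.04 percent were called higher and 4.71 percent lower than in fat, and 2.75 percent higher than in liver. With 17 genes, 0 calls higher lies near these shares. Against liver 3 of the 17 were called lower, beside 7.51 percent of all genes compared: the lysosomal membrane genes LAMP1 and LAMP2, at -1.71 ± 0.12 and -1.54 ± 0.05, and GABARAPL1, of the family of proteins that RETREG1 binds, at -1.67 ± 0.16. The list's median against liver was -0.11. GABARAPL1 differed by 0.13 ± 0.06 from fat.

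Genes of ER folding were called lower than in liver or not called. Of 22 ER folding genes 11 were measured, with 0 called against fat and a median of 0.12. Of all genes, 2.04 percent were called higher and 4.71 percent lower than in fat. Against liver 3 of the 11 were called lower, beside 7.51 percent of all genes: the disulfide isomerase PDIA4 at -1.85 ± 0.03, the prolyl isomerase PPIB at -1.66 ± 0.23 and the thiol-retention protein ERP44 at -1.36 ± 0.02, with a median of -0.50. Of 31 genes of the unfolded protein response and ER-associated degradation 18 were measured. SYVN1, the ubiquitin ligase of that degradation, was called higher than in fat at 1.13 ± 0.06, differed by 0.22 ± 0.17 from liver, and was the 1 call of its list. With 18 genes, 1 call higher than in fat lies near the 2.04 percent of all genes. None of the 18 was called against liver, beside 2.75 percent of all genes called higher and 7.51 percent lower. The medians of that list were 0.13 against fat and 0.08 against liver.

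**Figure D3:**
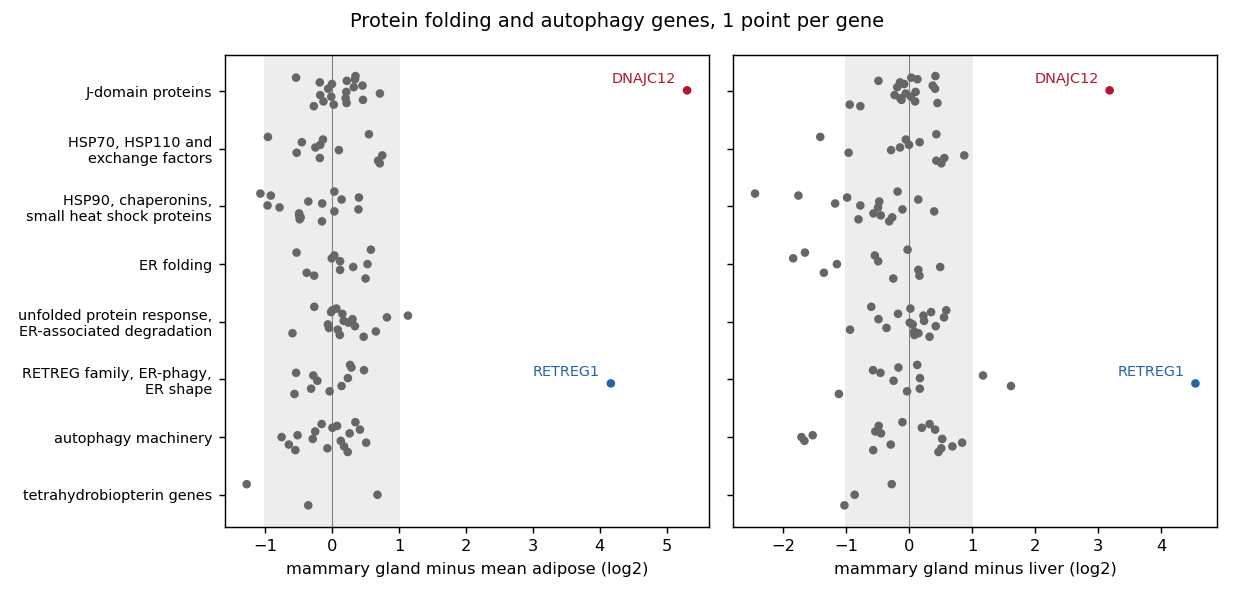
Each point is a measured gene of a list, placed by its log2 difference between mammary gland and mean adipose tissue or liver, with DNAJC12 and RETREG1 marked; the grey band spans -1 to 1. Both marked genes lie apart from the other members of their lists, which are mostly within the band against adipose tissue.

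Ranked by the step from mammary gland down to its highest other tissue, RETREG1 was the second and DNAJC12 the fourth of 4307 genes with a value on all arrays. EHF, an epithelial transcription factor, stood first with a step of 3.88 log2 units, followed by RETREG1 with 3.84. MFGE8, which coats secreted milk fat globules, had 3.51 and DNAJC12 had 3.18. MUC1, a mucin of the apical membrane, came next with 3.09, then the lipid droplet coat gene PLIN2 with 2.93 and the lactose synthase subunit gene B4GALT1 with 2.21. ESRP1, an epithelial splicing regulator, had 2.20 and the milk transporter gene ABCG2 had 2.17. This ranking was made under the likely direction of the ratio alone. The next tissue was liver for DNAJC12 and mesenteric fat for RETREG1.

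The likeness of profiles was measured by Pearson's r over the 5 tissue values, among 1416 genes with a range of at least 1 log2 unit. With 5 points that share the same arrays and 1 high tissue, r is a description and has no p. DNAJC12 was most like CIST1 (r 0.999), the grainyhead transcription factor gene GRHL1 (0.998), the gamma-glutamyltransferase gene GGT5 (0.996), LRBA (0.987) and the tight junction gene TJP3 (0.987). These genes share its order of mammary gland, liver and fat at a far smaller scale: CIST1 stood at 1.27 in mammary gland, 0.59 in liver and 0.04 to 0.10 in fat. None of these 5 was among the 5 most alike by r over the 10 arrays or by Euclidean distance, where SLC39A8 and EHF came first.

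RETREG1 was most like ESRP1 (r 0.997), the secretory pathway calcium pump gene ATP2C2 (0.991), the keratin gene KRT15 (0.990), TMEM43 (0.989) and the small GTPase gene RAB18 (0.988). ESRP1 came first by all 3 measures. It stood at 1.41 in mammary gland, -1.41 in liver, -0.98 in mesenteric, -0.79 in omental and -1.43 in subcutaneous fat, low in liver as RETREG1 was. Between DNAJC12 and RETREG1 themselves r was 0.874, and RETREG1 took place 56 of 1416 on the list of DNAJC12 and DNAJC12 place 63 on that of RETREG1. On the list of DNAJC12, RETREG1 took place 32 by r over the 10 arrays and place 14 by Euclidean distance.

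**Figure D4:**
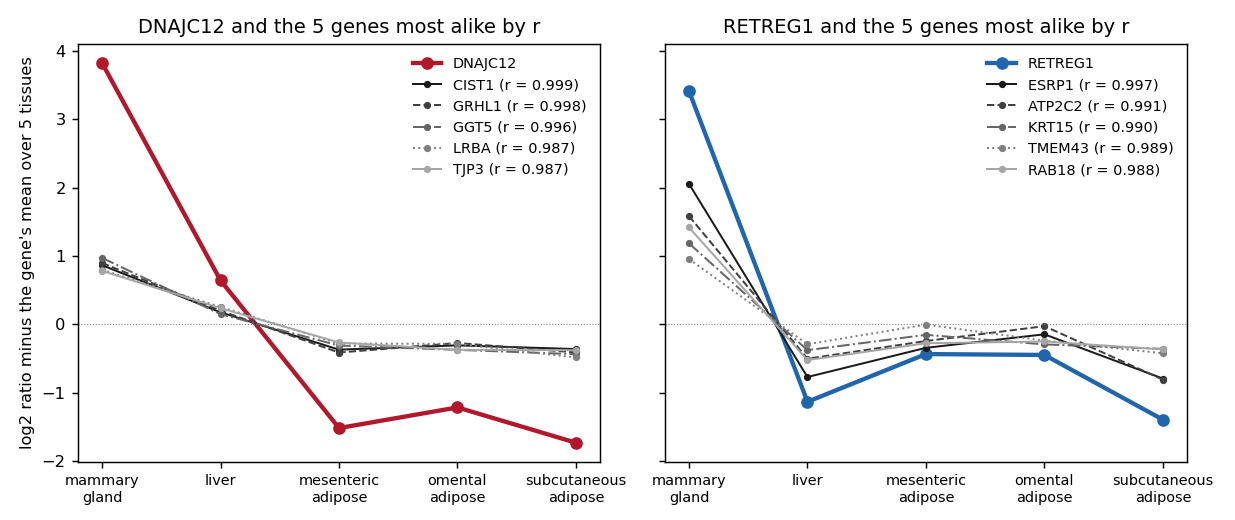
Log2 levels over the 5 tissues, less the mean of each gene over those tissues, for DNAJC12, RETREG1 and the 5 named genes most like each by Pearson's r over tissues. The companions of DNAJC12 follow its order of mammary gland, liver and fat at a smaller scale, but not its order of the depots. Those of RETREG1 differ in how low their liver value lies.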

How the data were processed

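Per the labels, RNA (20 ug) of each tissue and a mixed standard were made into dye-labelled cDNA and hybridised for 2 days at 42 C, scanned on a Scanarray 4000 and read with GenePix 4.0. The deposited value table was taken as dye ratios on the log2 scale, since 94 values sit at 16.61, the log2 of 100000; neither base nor direction is stated. The sources used here do not give the authors' background correction or normalisation; deposited array medians ran from -1.32 to 0.71, so the arrays were not centred alike. Channel intensities were not analysed here, so dim spots could not be filtered.

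Ceiling values were taken as missing, beside 2402 missing values. The sign of each array with a Cy3-labelled tissue was turned, and each array was centred on its median. The arrays of a tissue correlated at -0.78 to -0.66 before the turn. Duplicate spots (positions 2k-1 and 2k, r 0.83 to 0.92) were averaged, then the elements of a gene, then both dye orientations.

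The annotation does not follow the row order of the table. Of 131072 pairings of print layouts (48 table blocks of 171 elements, 16 annotation blocks of 528, joined through 384-well plates), the one used was that in which clones of one gene agree best. Its mean cosine was 0.468 over 475 search genes and 0.464 over 475 held-out genes (next layout 0.087 and -0.015; row order at face value -0.044 on the held-out genes). The held-out value is not blind, since the layout was known beforehand. Plates 1 to 20 of 22 were named, giving 5472 elements, of which 5467 matched the RefSeq gene table of ARS-UCD2.0, and 4366 genes. DNAJC12 and RETREG1 share plate 16, where clones of one gene had a median cosine of 0.768. The 6 elements next to each of them, in the table or on the plate, differed between mammary gland and fat by -1.04 to 0.25 for DNAJC12 and -0.83 to 0.13 for RETREG1. The name of any one clone may still be wrong.

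The genes, lists and marker sets were chosen with earlier results of these data known. Named were both genes, up to 4 called genes a list by size, and all measured ER-phagy receptors and tetrahydrobiopterin genes. Also named were the 5 most alike genes, the neighbours in rank, and up to 3 markers a list, except that all 4 measured adipocyte markers were named. HSPA8, APOA1, the C1Q genes and the extremes of lists were named after their values were seen. The 2-fold size rule replaced any test. The scripts were tested on simulated data. Python 3.11.15, numpy 2.4.6, pandas 2.3.3 and matplotlib 3.10.9 were used. Alternatives were no centring, quantile normalisation, kept ceiling values, one dye orientation, no omental Cy5 array, one spot of each pair, medians over elements, visceral depots only, and other fold limits.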

Additional observations from a re-analysis of the deposited data

How the results depend on the processing

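Both genes were called higher in mammary gland in all 5 mammary comparisons under all settings run, DNAJC12 was called higher in liver than in adipose tissue under all of them, and RETREG1 was called in that comparison under none. The cause of the shifts below was not tested. For DNAJC12 mammary gland minus liver was 3.74 after quantile normalisation, and mammary gland minus adipose tissue was 5.82 after quantile normalisation, 5.52 with the first spot of each pair and 5.10 with the second. For RETREG1 mammary gland minus liver was 4.76 without centring, and mammary gland minus adipose tissue was 4.57 after quantile normalisation. Between subcutaneous and visceral fat DNAJC12 turned to 0.26 without centring, and RETREG1 moved to -0.33 without centring and was called lower without the Cy3 arrays and at 1.5-fold. Between liver and adipose tissue RETREG1 ran from -0.77 to 0.019 when 1 dye orientation was left out. Genes higher and lower in mammary gland than in liver numbered 252 to 266 and 432 to 506 with 1 orientation, 290 and 561 at 1.5-fold, and 23 and 113 at 4-fold. Against adipose tissue they numbered 139 to 181 and 273 to 377 with 1 orientation, 215 and 549 at 1.5-fold, and 16 and 30 at 4-fold. One RNA sample a tissue, unknown signal over background and rebuilt gene names limit all values. No paired analysis was possible because the arrays of a tissue are treated as 1 RNA sample, no result comes from a test, and differences were already taken within each dye orientation.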

Other observations

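An element with no name used here and an element named SALL4 had nearly the profile of RETREG1. The unnamed element stood at 2.88 in mammary gland, -1.68 in liver, -0.91 in mesenteric, -0.81 in omental and -1.43 in subcutaneous fat, at a Euclidean distance of 0.63 from RETREG1 over the 5 tissues. The SALL4 element stood at 2.80, -1.68, -0.62, -0.52 and -1.60 in the same tissues, at a distance of 0.79. Both were nearer than ESRP1, the next closest element, at 1.56. The other SALL4 element stood at -0.34 in mammary gland, -0.49 in liver and 0.55 to 0.94 in fat, so the clones of that gene disagree. Which transcript these clones carry was not tested, and they were picked after their values were seen.

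Among all 7959 elements with a value on every array, named or not, RETREG1 was in place 3 and DNAJC12 in place 8 by the step from mammary gland to the highest other tissue, under the likely direction of the ratio. The element in first place has no name used here. It stood at 5.65 in mammary gland, -2.20 in liver, -2.66 in mesenteric, -1.73 in omental and -0.37 in subcutaneous fat, a step of 6.02 log2 units.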
